A study of Homo sapiens with 78 samples.

Results

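Long noncoding RNA (lncRNA) genes that were read in cells of one line and in few or none of the other are described here. A gene was chosen when at least 10 estimated counts, summed over its transcripts, were found in at least 50% of the wells of one cell line and in at most 10% of the wells of the other. The choice was made among 14717 autosomal GENCODE lncRNA genes, without the most abundant nuclear lncRNAs, the small nucleolar RNA host genes and a few other genes treated apart. It gave 69 genes, of which 63 were A375-restricted and 6 were Jurkat-restricted, out of 58388 genes with a target in the deposited tables. These are 0.428% and 0.0408% of the lncRNA genes that the choice was made from. The members were thus selected on their counts in the wells of both cell lines, and these levels are given below as a description only.

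Total RNA of single cells was sequenced after FACS sorting into microplates. A375 is a human melanoma line, grown in DMEM, labelled with anti-CD47 and sorted in PBS. Jurkat is a human T cell leukemia line, grown in RPMI, labelled with anti-CD81 and sorted in lysis solution. Cell line, culture medium, antibody and sort buffer therefore cannot be told apart. The library reagents were those of Takara's stranded Pico Input kit, version v2 (kit 634413), or of its SMART-Seq Stranded Kit (kit 634444). Of 78 wells, the 69 with at least 200000 estimated counts were used, namely 17 and 16 A375 wells and 18 and 18 Jurkat wells for kits 634413 and 634444, and the cells of all groups were untreated as far as the labels say.

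Each well holds 1 cell, and the labels name no separate cultures or library pools, so each combination of line and kit is 1 sample without replicates. No test was made, and spreads over wells describe cells of the same sort. The wells used held 231540 to 2567265 counts in A375 (median 814261) and 413959 to 1443975 in Jurkat (median 887000). Markers of the labelled line held more counts than markers of the other line in 33 of 33 A375 wells and in 36 of 36 Jurkat wells, with at most 31.03% of the marker counts from the other list. CD3D, CD3E, CD2, CD5, ZAP70, TRAC and BCL11B had 3 counts or fewer over all A375 wells, and PMEL, S100B, CAV1, TNC and S100A6 had 3 or fewer over all Jurkat wells. In 3 A375 wells the share of counts on protein coding genes was 4.84%, 10.5% and 44.4%, against a median of 71.4% over the A375 wells.

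lncRNAs are transcripts without a long open reading frame. Many are spliced and polyadenylated, and they are known for being less abundant and more restricted to cell types than messenger RNAs. Some act at their site of transcription, where they start from the promoter of a neighbouring protein coding gene or run antisense to it. Others serve as host genes, whose introns or exons are cut into microRNAs, short RNAs that pair through their seed (bases 2 to 8) with target messenger RNAs.

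Of the A375-restricted genes, 8 hold miRNA genes on their own strand, and none of the 6 Jurkat-restricted genes does. Such hosts were 12.7% of the A375-restricted genes and 8.89% (4 of 45) of the lncRNA genes found in 50% of the wells of both lines. Their mature miRNAs are shown because the hosts carry members of the same seed families at separate places in the genome. The sequences are those of RefSeq (GRCh38.p14), 5′ to 3′, with the seed in capitals.
hsa-let-7a-5p: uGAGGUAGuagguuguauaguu
hsa-let-7b-5p: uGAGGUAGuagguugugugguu
hsa-let-7c-5p: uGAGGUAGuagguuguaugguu
hsa-let-7i-5p: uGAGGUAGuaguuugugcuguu
hsa-miR-100-5p: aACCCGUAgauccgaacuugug
hsa-miR-99a-5p: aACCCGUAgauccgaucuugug
hsa-miR-125b-5p: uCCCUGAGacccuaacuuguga
hsa-miR-30a-5p: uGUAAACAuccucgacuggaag
hsa-miR-30c-5p: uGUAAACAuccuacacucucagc
hsa-miR-29a-3p: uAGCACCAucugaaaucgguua
hsa-miR-29b-3p: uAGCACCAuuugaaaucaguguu
The let-7 seed occurs in 4 hosts. MIR100HG (chr11:122028325-122556721) holds the genes of miR-100, let-7a-2 and miR-125b-1, and MIR99AHG (chr21:15928296-16646364) holds those of miR-99a, let-7c and miR-125b-2, so both clusters carry the same 3 seeds. MIRLET7BHG (chr22:46053869-46113928) holds let-7a-3 and let-7b, and MIRLET7IHG (chr12:62602752-62622213) holds let-7i. LINC00472 (chr6:71187161-71420745) holds miR-30a and miR-30c-2, and LINC-PINT (chr7:130791264-131110176) holds miR-29a and miR-29b-1. MIR23AHG holds the miR-23a, miR-27a and miR-24-2 genes, and MIR548XHG holds miR-548x. The counts are those of the host transcripts, and mature miRNAs were not measured.

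The host genes ranged widely in level. Levels of different genes are compared as TPM, which accounts for transcript length, and levels of 1 gene between groups as CPM, the counts of the gene scaled to all counts of the wells of a group. MIR100HG had the highest mean TPM of the hosts, with 104 ± 78.8 (SD over 33 A375 wells). It was followed by MIR99AHG with 51.0 ± 48.1, LINC-PINT with 49.7 ± 48.9 and MIR548XHG with 30.3 ± 25.7, whose spreads overlapped with each other. MIR23AHG (11.4 ± 13.7), LINC00472 (11.002 ± 12.9), MIRLET7BHG (8.31 ± 17.97) and MIRLET7IHG (3.03 ± 3.36) were lower. The last, with 1 transcript of 8693 bases, held 1141 counts in A375 and 126 in Jurkat, of which 84 came from 1 Jurkat well, and its ratio of 9.04 between the lines was the smallest of the 8. No count of MIR99AHG was found in Jurkat, and 17 counts of MIR100HG were spread over 7 Jurkat wells, none of which reached 10.

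More lncRNA genes were restricted to A375 than to Jurkat. At least 10 counts in 50% of the wells were reached by 217 lncRNA genes in A375, by 68 in Jurkat and by 45 in both. The restricted genes were thus 29.03% of those detected in A375 and 8.82% of those detected in Jurkat. The same rule applied to autosomal protein coding genes gave 588 of 7145 genes in A375 (8.23%) and 195 of 6237 in Jurkat (3.13%). All lncRNA genes held a median of 6.82% of the counts of an A375 well and 2.18% of a Jurkat well, and the part of this difference in the number of restricted genes was not tested. After each well was thinned to 200000 counts, 45 lncRNA genes and 3212 protein coding genes passed the minimum in 50% of the A375 wells. In Jurkat 13 and 3188 did so. By the rule, 15 of the 45 lncRNA genes were A375-restricted and 4 of the 13 were Jurkat-restricted. These shares were thus close to each other at equal depth, unlike those above. All 69 wells were deep enough to be thinned, and the 9 A375 wells under 200000 counts were left out.

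**Figure D1:**
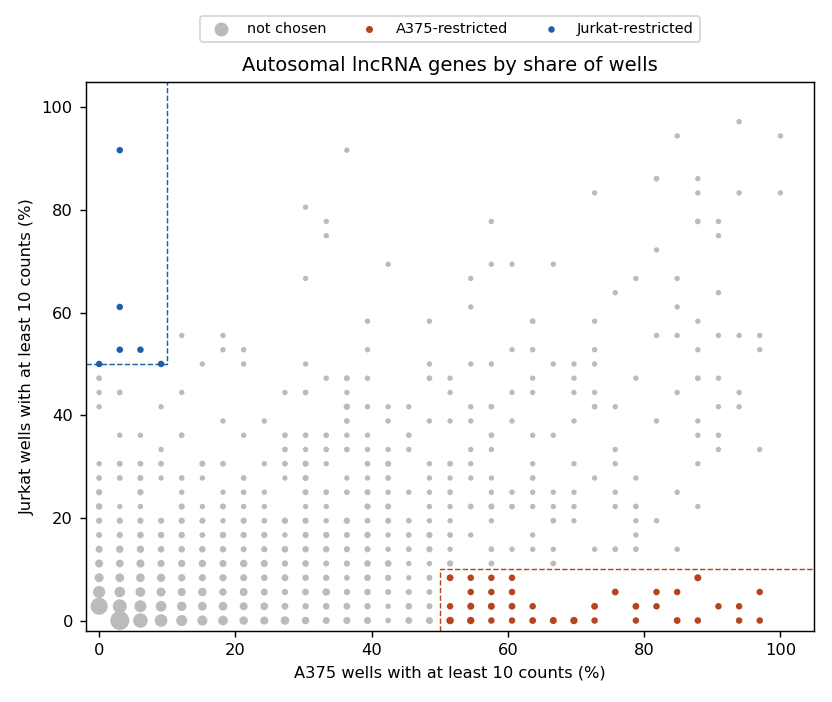
Each of the autosomal lncRNA genes found at 10 counts or more in any well is placed by the percentage of the 33 A375 wells (x axis) and of the 36 Jurkat wells (y axis) with at least 10 counts, and larger points stand for more genes at the same place. Dashed lines are the limits of the rule, with 63 A375-restricted genes at the lower right and 6 Jurkat-restricted genes at the upper left.

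The A375-restricted genes were detected in 17 to 32 of 33 wells (median 21), and 5 of them in at least 90% of the wells. Of these genes, 9 were just inside the limit with 17 wells, among them LINC02476, SERTAD4-AS1 and ENSG00000273374, and 17 were just outside it with 16 wells, such as ENSG00000224549, ENSG00000258265 and LURAP1L-AS1 with 908, 810 and 771 counts in A375 and none in Jurkat. On the side of the other line, 8 members reached 10 counts in 3 of 36 Jurkat wells, among them LINC-PINT, ENSG00000272405 and LINC00511. LINC00665, LINC01013 and ENSG00000261770 were left out with 4 such wells. For Jurkat, ENSG00000176320 and LINC01260 were just inside with 18 of 36 wells, and LINC00426 followed with 19. FAM30A and ENSG00000268555 were just outside with 17 wells and LINC03040 with 16, and MIR646HG, DLEU2 and ENSG00000262202 were left out with 4, 5 and 6 of 33 A375 wells.

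The 63 A375-restricted genes held little of the RNA of a cell. Together they took a median of 0.286% of the counts of an A375 well (0.0242% to 0.416%) and of 0.00506% of a Jurkat well (0.000321% to 0.0270%). These ranges overlapped only through the A375 well with 4.84% of counts on protein coding genes, where 56 counts gave the 0.0242% (95% Wilson interval 0.0186% to 0.0314%). They summed to 89072 counts or 2739 CPM in A375 (95% exact Poisson interval 2721 to 2757) and to 1948 counts or 59.96 CPM in Jurkat (57.3 to 62.7). Intervals cover counting error only, since PCR reads without molecular identifiers are not independent molecules.

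The 6 Jurkat-restricted genes took a median of 0.0197% of a Jurkat well (0.00402% to 0.0575%), with 243 CPM (238 to 248), and at most 0.0118% of an A375 well, with 8.94 CPM (7.94 to 10.03). They made up 1.07% of the lncRNA counts of Jurkat, and the A375-restricted genes 4.12% of those of A375. In an A375 well 3 to 63 of the 63 genes reached 10 counts (median 44), and in a Jurkat well 0 to 6. Of the 6 Jurkat-restricted genes, 1 to 6 were found in a Jurkat well (median 4) and 0 to 2 in an A375 well.

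**Figure D2:**
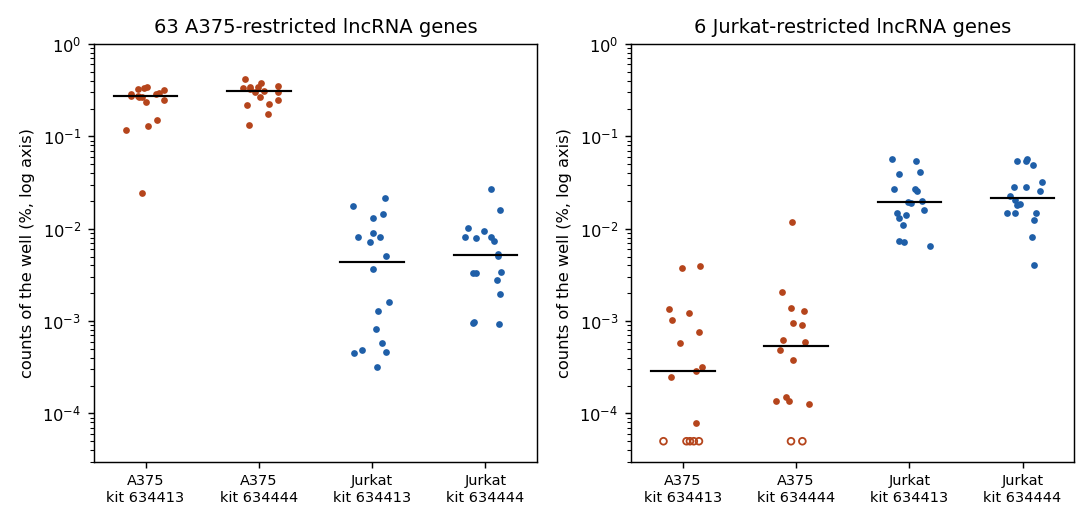
Share of the estimated counts of each well (percent, log axis) on the 63 A375-restricted genes (left) and the 6 Jurkat-restricted genes (right), by cell line and kit. Points are wells, bars are medians, and open circles at the lower edge are wells without a count. The A375 medians stand at 0.274% and 0.307% for kits 634413 and 634444, and the Jurkat-restricted genes have medians of 0.0194% and 0.0216% in Jurkat.

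LINC01239 (chr9:22646200-22824213), an intergenic gene of unknown function, had the highest summed level of the A375-restricted genes. With kit 634413 its lowest, median and highest values were 21.6, 195 and 813 CPM over 17 A375 wells. With kit 634444 they were 41.9, 173 and 297 CPM over 16 wells. It was present in every A375 well, whereas in Jurkat 28 counts came from 3 wells, and its summed CPM was 220-fold higher in A375. LINC01029 (chr18:77970637-77993731) had medians of 154 and 178 CPM in the wells of the 2 kits, and it was absent from 1 A375 well. Its Jurkat counts summed to 0.478, under the 3 counts taken as the least that the depth can show. ENSG00000264334 overlaps LINC01029 on the same strand, so that reads of the pair cannot be assigned with certainty, and no well held ENSG00000264334 at 10 counts without LINC01029.

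MIR100HG ranged from 4.32 to 441 CPM with kit 634413 (median 134) and from 30.1 to 504 CPM with kit 634444 (median 113), and its summed CPM was 316-fold higher in A375. No A375 well was without it. ENSG00000290523 (chr21:10413477-10491615), near the centromere of its chromosome, ranged from 1.25 to 242 CPM (median 127) and from 72.1 to 318 CPM (median 154) for the 2 kits. It shares a stretch of 98.9% identity with BAGE2, a cancer/testis family member, which held 1310 counts in A375 and none in Jurkat, and the split of reads between both is uncertain. LINC01419 (chr8:83403758-83408900) had medians of 83.9 and 112 CPM, with 4 A375 wells at 0, and summed to 4439 counts in A375 and 1 in Jurkat.

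LINC-PINT, known as a p53-induced lncRNA with a tumour suppressor role, had medians of 100 and 104 CPM for the 2 kits and was at 0 in 2 A375 wells. It was found in 12 Jurkat wells, in 3 of them at 10 counts or more, and its summed CPM was 57.7-fold higher in A375. ENSG00000272405 (chr1:156641666-156644887) had medians of 63.4 and 88.8 CPM, and it was 69.1-fold higher in A375. LINC01060 (chr4:188400736-188681051) varied more, with medians of 50.1 and 73.6 CPM, 5 A375 wells at 0 and a highest well of 352 CPM. Only 1 Jurkat well held LINC01060, with 8 counts.

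Per transcript length, the order was different. LINC01029 (212 ± 161 TPM, SD over 33 wells), LINC01060 (173 ± 220) and MIR100HG (104 ± 78.8) lay above LINC01239 (67.1 ± 48.8), ENSG00000290523 (63.98 ± 33.3) and LINC01419 (61.975 ± 55.8), and neighbours in this order differed by less than their spread over wells. LINC-PINT and ENSG00000272405 had 49.7 ± 48.9 and 19.99 ± 15.9 TPM.

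CASC15 (chr6:21664184-22654455), a gene next to SOX4 at a neuroblastoma risk locus, stood apart among the Jurkat-restricted genes. Its lowest, median and highest values were 10.1, 80.6 and 431 CPM over 18 Jurkat wells with kit 634413 and 1.059, 92.4 and 410 CPM over 18 wells with kit 634444. It was present in every Jurkat well, with 4203 counts against 53.5 in A375, and its summed CPM was 78.6-fold higher in Jurkat. CASC15 has also been described in melanoma, and it stood in the list of melanoma lncRNAs below, but 1 of 33 A375 wells held 10 counts of it.

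The other 5 Jurkat-restricted genes were lower and patchy. ENSG00000260997 (chr7:44958999-44960909) had medians of 34.4 and 20.6 CPM with kits 634413 and 634444 and was at 0 in 3 of 36 wells. ENSG00000176320 had medians of 0.396 and 25.6 CPM, LINC00426 of 0 and 24.6 CPM, HHIP-AS1 of 0 and 20.7 CPM and LINC01260 of 2.63 and 15.5 CPM. In these 4 genes 11 to 14 of 36 Jurkat wells had no count, while single wells reached 62.5 to 173 CPM. LINC01260 (chr20:44656451-44663498) had no count in A375, and its summed CPM in Jurkat was at least 161-fold higher. Its main transcript shares a stretch of 100% identity with ENSG00000132832, which held 201 counts in Jurkat and none in A375.

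**Figure D3:**
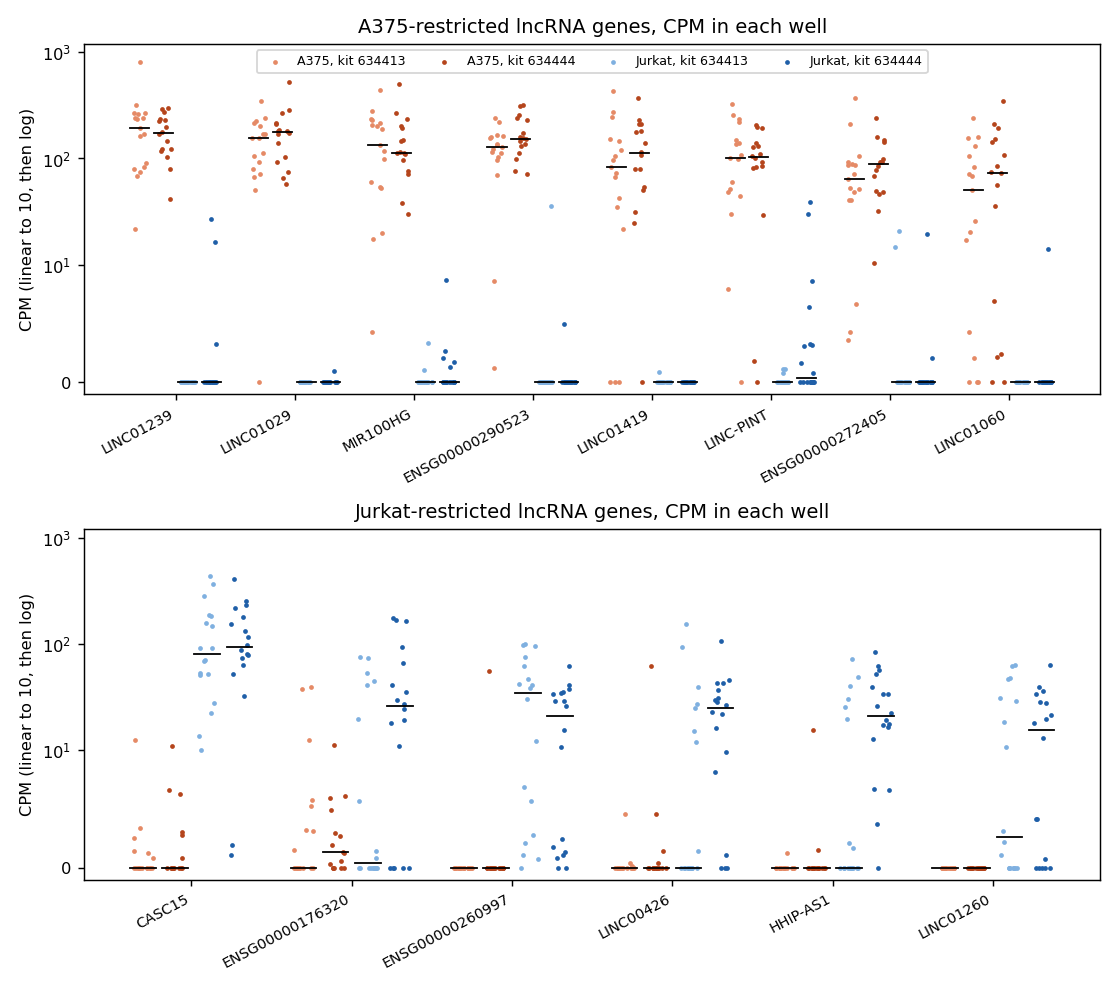
CPM of the 8 A375-restricted genes with the highest summed CPM (top) and of the 6 Jurkat-restricted genes (bottom) in each of the 69 wells, by line and kit. The axis is linear up to 10 CPM and logarithmic above, points are wells and bars are medians. Medians of the A375-restricted genes in A375 lie between 50.1 and 195 CPM, and 3 of the 6 Jurkat-restricted genes have a median under 1 CPM with kit 634413 in their own line.

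Over all members, the ratio of summed CPM between the own and the other line ranged from 2.23 to 10.8 on the log2 scale for the A375-restricted genes (median 6.11) and from 2.91 to 7.33 for the Jurkat-restricted genes (median 4.71). For 20 and 1 genes the other line had 3 counts or fewer, and the ratio was set with 3 counts. No Jurkat well reached 10 counts for 30 of the 63 genes. The summed counts in A375 ran from 385 to 6170 (median 938), so that a median A375-restricted gene had 28.8 CPM. The direction and size are given by the choice of the genes.

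The spread over the wells of the own line was taken as the SD over the mean of CPM. It had a median of 0.978 over the A375-restricted genes, of 1.15 over the Jurkat-restricted genes and of 0.769 over the 45 lncRNA genes found in 50% of the wells of both lines, for these in the A375 wells. The largest values in A375 were those of TRHDE-AS1 (1.76), antisense to the peptidase gene TRHDE, and LINC02335 (1.44), and the smallest those of ENSG00000290523 (0.490) and BCAN-AS2 (0.570). In Jurkat ENSG00000176320 (1.48) and LINC00426 (1.44) were the most uneven, and CASC15 (0.879) and ENSG00000260997 (1.04) the least. The number of A375-restricted genes at 10 counts in a well and the total counts of the well had a Spearman's rho of 0.72 over 33 A375 wells, and for the Jurkat-restricted genes it was −0.21 over 36 Jurkat wells.

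The rule pooled the wells of both kits, so the difference between the kits within the own line was not free of it. Genes read mainly with 1 kit were kept out unless that kit brought them to 50% of all own wells, and the kit values are a description. Of the 63 A375-restricted genes, 45 reached 10 counts in at least 50% of the A375 wells with each kit, 16 only with kit 634444 and 2 only with kit 634413. Of the 6 Jurkat-restricted genes, 2 did so with each kit and 4 only with kit 634444. A ratio was called past a log2 of 1, which is a factor of 2. In A375, 4 of the 63 genes were higher with kit 634444, beside 6.97% of all 13838 genes with at least 100 counts, and 1 was lower, beside 5.7%. Of autosomal lncRNA genes with as many counts, 14.2% were higher and 11.9% lower. In Jurkat, 2 of the 6 genes were higher, beside 9.35% of 11957 genes (15.6% of lncRNA genes), and none was lower, beside 10.2% (27.3% of lncRNA genes). Because of the pooled choice, nothing is read from these shares. The median log2 ratio was 0.24 over the A375-restricted and 0.18 over the Jurkat-restricted genes. Since a library pool can hold only wells of 1 kit and pools are not named, kit and pool cannot be told apart.

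ENSG00000232034, on chromosome 2 and on the sense strand of NPAS2, was the A375-restricted gene furthest to the side of kit 634444. It had a median of 6.52 CPM with kit 634413 (0 to 96.03) and of 57.7 CPM with kit 634444 (1.204 to 161), and its summed CPM was 2.94-fold higher with the latter. ENSG00000224810 had medians of 4.88 and 33.9 CPM and ENSG00000251199 of 3.81 and 17.6 CPM, with summed CPM 2.74-fold and 2.17-fold higher with kit 634444. The miRNA host LINC00472 was near the threshold, with 10.7 and 21.9 CPM summed. These last 3 genes reached 10 counts in 8, 7 and 7 of 17 wells with kit 634413 and in 11, 10 and 11 of 16 wells with kit 634444, so they were admitted through the kit in which they were higher. TRHDE-AS1 went the other way, admitted through kit 634413 (11 of 17 wells, against 7 of 16), with 47.7 CPM summed for kit 634413 and 15.6 CPM for kit 634444, a log2 ratio of −1.62. A single well held 38.4% of its counts with kit 634413 and another 46.3% with kit 634444. Without the well with most counts in each kit, its log2 ratio was −1.63.

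In Jurkat, ENSG00000176320 was found at 10 counts in 6 of 18 wells with kit 634413 and in 12 of 18 wells with kit 634444. It was at the limit of the rule and met it through the wells of kit 634444. Its summed CPM was 13.9 and 48.03, which is 3.44-fold higher with the latter. HHIP-AS1, antisense to the gene of the hedgehog inhibitor HHIP, was found in 6 and 13 wells, also met the rule through kit 634444, and had 13.6 and 28.97 CPM. The wells of both kits overlapped in CPM for each of these 7 genes.

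**Figure D4:**
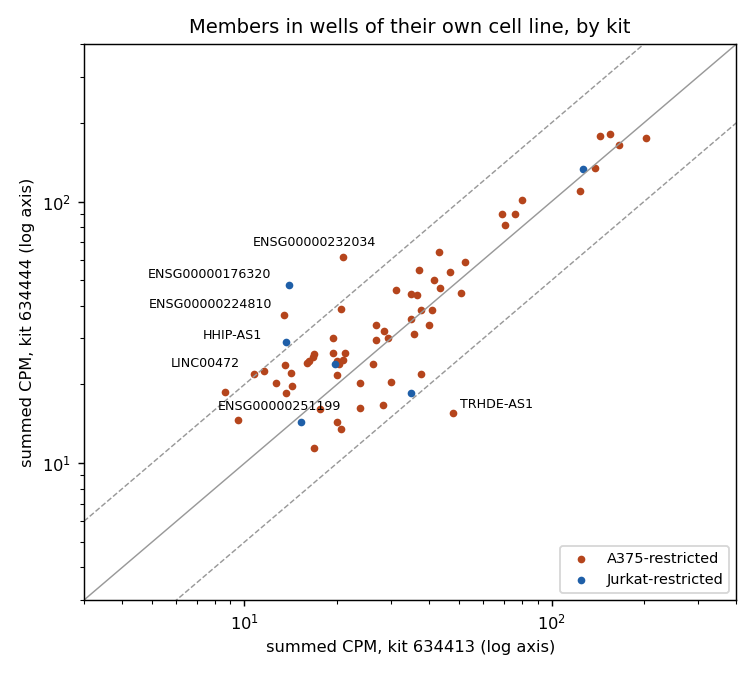
Summed CPM of each of the 69 members in the wells of its own cell line with kit 634413 (x axis) and kit 634444 (y axis), both on log axes. The solid line marks equal values and the dashed lines a factor of 2 in either direction, outside of which 7 named genes lie, TRHDE-AS1 on the lower side.

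When the rule was applied to the wells of 1 kit, the wells of the other kit were not used for the choice. Kit 634413 alone gave 59 A375-restricted genes. In the wells of kit 634444 the rule was met by 34 of these (57.6%), beside 0.7% of all lncRNA genes, and 55 were past a log2 ratio of 2 towards A375, beside 30.5% of lncRNA genes with more than 3 counts. Kit 634444 alone gave 103 genes. The rule was met by 34 of these (33.0%) with kit 634413, beside 0.401%, and 88 were past 2 towards A375, beside 42.5%. The median log2 ratios in the wells left aside were 5.87 and 5.74. For Jurkat, 5 genes were chosen with kit 634413, of which 2 met the rule with kit 634444 (beside 0.0747%) and 3 were past 2 (beside 10.3%). Of 11 genes chosen with kit 634444, 2 met it with kit 634413 (beside 0.034%) and 10 were past 2 (beside 13.8%). The lncRNA genes with more than 3 counts hold some with too few counts to pass 2, which lowers the shares beside. The shares for the rule are lowered much more, as they are over all 14717 lncRNA genes. Of these, 7177 had more than 3 counts in a line over both kits, and the others could not meet the rule. The wells of both kits came from the same 2 lines, with the same medium, antibody and sort buffer for each line.

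Protein coding genes next to the members were not used by the rule either. For each member the protein coding gene with the nearest start, within 100000 bases on either strand, was compared between the lines where it had at least 100 counts in all. In A375 this left 20 genes, since 33 neighbours were too far and 10 had too few counts. Of these 20, 11 (55%) were past a log2 ratio of 2 towards A375, beside 17% of 12442 autosomal protein coding genes, 1 was past 2 towards Jurkat and 8 were in between. In Jurkat all 5 neighbours with enough counts were past 2 towards Jurkat, beside 9.52%. The median log2 ratio towards the own line was 2.71 over the 20 neighbours and 6.93 over the 5. Within 5000 bases, 6 of 8 neighbours of A375-restricted genes were past 2.

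NES encodes nestin, an intermediate filament protein of neural stem cells, and BCAN-AS2 starts 15983 bases from it. In A375 the lowest, median and highest NES values were 33.1, 286 and 841 CPM, and in Jurkat no count was found in 36 wells, so the summed CPM was at least 3445-fold higher in A375. BCAN-AS2 and ENSG00000272405 lie 1620 bases apart on the same strand, both antisense to BCAN, which encodes the matrix proteoglycan brevican and had too few counts to compare. Both were found at 10 counts in 28 of 33 A375 wells. SERTAD4 starts 1251 bases from SERTAD4-AS1 on the opposite strand. It had a median of 76.9 CPM in A375 (0 to 394) and 1 count in Jurkat. SERTAD4 reached 10 counts in 25 of 33 A375 wells, among them 15 of the 17 wells with SERTAD4-AS1.

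RIPK2, which encodes the kinase downstream of the NOD receptors, starts 6 bases from RIPK2-DT, its divergent transcript. RIPK2 was low, with a median of 9.48 CPM in A375 (0 to 49.4) and no count in Jurkat. RIPK2-DT was found in 27 A375 wells and RIPK2 in 13, of which 11 held both. SNTB1, encoding a syntrophin of the dystrophin complex, had a median of 68.9 CPM in A375 and was 14.4-fold higher there in summed CPM, next to the antisense gene ENSG00000272502. MAGI2, a scaffold protein gene divergent from MAGI2-AS3, was 10.3-fold higher with a median of 17.5 CPM in A375. NPAS2, a circadian transcription factor gene, had a median of 307 CPM in A375, and the highest Jurkat well reached 292 CPM, within the range of the A375 wells. Its summed CPM was 7.88-fold higher in A375. BTG1, an antiproliferative gene (chr12:92140278-92145846), was 7.53-fold higher, and LINC01619 starts inside it. Each of the 18 wells with LINC01619 also held BTG1, which reached 10 counts in 31 of 33 A375 wells. How reads were divided between overlapping genes was not tested for this pair, nor for NPAS2 and ENSG00000232034 on its sense strand.

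Of the other neighbours past the ratio, SLCO4A1 (a transporter gene, near SLCO4A1-AS1) was 12.6-fold, ARRDC4 (near LINC00923) 8.89-fold and ANKRD18A (near ENSG00000290907) 8.34-fold higher in A375. POTEM (near ENSG00000257891) belongs to a family of near-identical copies, and 2 A375 wells reached 10 counts of it. MIF, a cytokine gene 12685 bases from ENSG00000273295, was the exception, with 411 CPM in Jurkat and 59.8 CPM in A375. MKLN1, which starts 80 bases from LINC-PINT, had 113 CPM in A375 and 62.2 CPM in Jurkat, and UBASH3B near MIR100HG had 34.1 and 58.8 CPM, so neither followed the lncRNA to the threshold.

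The neighbours of the Jurkat-restricted genes include genes with known roles in lymphoid cells. ADA, the adenosine deaminase gene 11246 bases from LINC01260, ranged from 193 to 1093 CPM in Jurkat (median 516), and its highest A375 well had 16.4 CPM. MYO1G, a myosin gene of blood cells, had a median of 219 CPM (1.23 to 931) and a highest A375 value of 7.13 CPM. CD1D, which encodes a lipid antigen presenting molecule, had a median of 23.7 CPM, without a count in A375. HHIP ranged from 14.2 to 273 CPM (median 96.9) and SOX4, a transcription factor gene, from 55.9 to 1578 CPM (median 436). In A375 the highest wells had 30.96 CPM of HHIP and 110 CPM of SOX4. The groups did not overlap for ADA and overlapped for the others.

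Over the wells of the own line, the CPM of a member and of a neighbour past the ratio went together weakly. Spearman's rho lay between −0.13 (BCAN-AS2 and NES) and 0.60 (ENSG00000290907 and ANKRD18A) over 33 A375 wells. In Jurkat it lay between −0.39 (LINC01260 and ADA) and 0.34 (CASC15 and SOX4) over 36 wells. Both genes of a pair come from the same library and depth, and the correlations are a description.

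**Figure D5:**
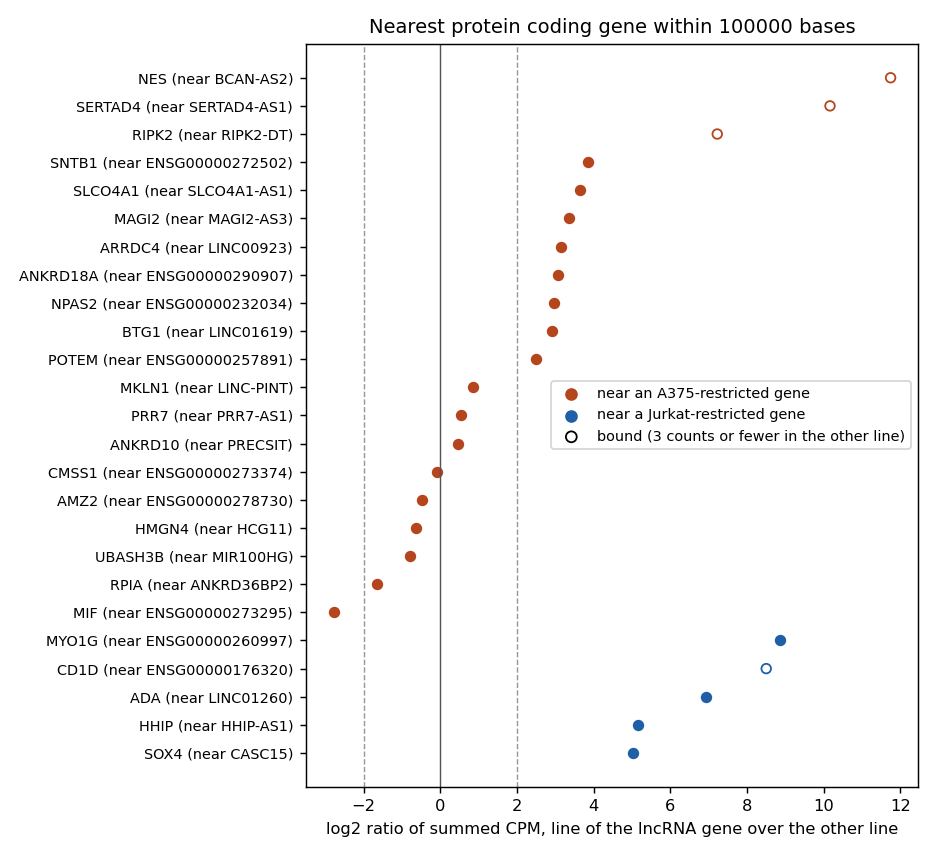
Log2 ratio of summed CPM between the line of the lncRNA gene and the other line for the nearest protein coding gene of 20 A375-restricted and 5 Jurkat-restricted genes. Dashed lines mark a ratio of 2 in either direction, and open circles are ratios set with 3 counts. The 5 neighbours of Jurkat-restricted genes and 11 of the 20 neighbours of A375-restricted genes lie beyond 2, and MIF lies beyond −2.

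Positions in the genome are set beside those of the lncRNA genes found in 50% of the wells of both lines, called shared genes, with no test. The median distance to the nearest protein coding start was 126188 bases for the A375-restricted genes against 18774 bases for the 45 shared genes, and 33 of 63 (52.4%) lay more than 100000 bases away, against 3 of 45 (6.67%). Divergent starts within 1000 bases of a protein coding start occurred in 3 A375-restricted genes (4.76%) and in 10 shared genes (22.2%). Of the 63 genes, 41 were intergenic, 14 antisense and 5 on the sense strand of a protein coding gene. Of the 6 Jurkat-restricted genes, 4 were intergenic and 2 antisense, at a median distance of 22013 bases between GENCODE starts. The longest spliced transcript had a median of 3007 bases in A375-restricted, 1915 in Jurkat-restricted and 4722 in shared genes. The part of transcript length in what was detected was not tested.

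Near-identical stretches in another gene touch 5 members, where at least 95% identity covered at least 50% of the main transcript. These are ENSG00000290523 and LINC01260, described above, as well as LINC00869, ENSG00000290970 and ENSG00000291020. ENSG00000291020 shares its stretch with ENSG00000166104, which held 933 counts in A375 and none in Jurkat, against 1206 counts of ENSG00000291020. LINC00623, the copy of LINC00869, held 189 counts in A375 and none in Jurkat. FAM95B1, the copy of ENSG00000290970, held 225 counts in A375 and also 72.1 in Jurkat, against 551 counts of ENSG00000290970 in A375. How reads were divided between these genes was not tested. The search did not tell copies elsewhere in the genome from genes that overlap a member at its own place. A single transcript carried over 50% of the counts in 39 of the 63 A375-restricted genes. LINC-PINT had 41.4% of its counts on its main transcript with kit 634413 and 61.1% with kit 634444, and SLCO4A1-AS1 26.9% and 64.3%. Kallisto estimates how reads that match several transcripts are divided, and its part in these shares was not tested.

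RefSeq promoter windows, 250 bases before and 50 bases after a start, were at hand for 29 members, 26 A375-restricted and 3 Jurkat-restricted. Of 5 motifs searched on both strands, TGANTCA was found in 6 of the 26 windows (23.1%). Over all 35116 windows of the table its share was 7.71%. This pattern takes in the AP-1 site, TGACTCA or TGAGTCA, but also TGAATCA and TGATTCA. It was in none of the 3 Jurkat windows. TATAAA was in 2 of 26 (11.5% of all windows), and CACGTG (7.26% of all), TGTGGT (13.1%) and AGATAA (10.3%) were each in 3 of 26. The windows of SERTAD4-AS1 (chr1:210233836-210234135, minus strand), PRR7-AS1 (chr5:177447895-177448194, minus strand) and LINC-PINT (chr7:130913261-130913560, minus strand) are shown as examples with a match to TGANTCA. The matches of LINC-PINT are TGATTCA and TGAATCA, which are not the AP-1 site itself. That of LINC00426 (chr13:30373865-30374164, minus strand) is shown as the only one of the 3 Jurkat-restricted windows with a match to any of the motifs. Capitals mark a match to any of the 5 motifs on either strand. The LINC-PINT start of RefSeq lies inside the GENCODE gene and not next to MKLN1. The RefSeq window of HHIP-AS1 (chr4:144645970-144646269) holds the start of HHIP (144646156), whereas the GENCODE starts of both lie 15201 bases apart. Which starts were used is not shown by transcript counts.
SERTAD4-AS1: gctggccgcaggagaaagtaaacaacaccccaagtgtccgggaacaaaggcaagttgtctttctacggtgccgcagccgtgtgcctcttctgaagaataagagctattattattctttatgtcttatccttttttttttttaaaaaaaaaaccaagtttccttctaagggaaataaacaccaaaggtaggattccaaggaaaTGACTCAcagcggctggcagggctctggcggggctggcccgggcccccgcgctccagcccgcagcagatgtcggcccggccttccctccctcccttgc
PRR7-AS1: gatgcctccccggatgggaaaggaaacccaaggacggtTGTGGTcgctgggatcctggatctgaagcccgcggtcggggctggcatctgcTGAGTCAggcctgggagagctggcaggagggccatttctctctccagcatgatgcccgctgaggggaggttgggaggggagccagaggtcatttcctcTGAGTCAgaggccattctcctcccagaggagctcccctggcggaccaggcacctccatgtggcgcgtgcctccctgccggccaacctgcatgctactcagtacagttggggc
LINC-PINT: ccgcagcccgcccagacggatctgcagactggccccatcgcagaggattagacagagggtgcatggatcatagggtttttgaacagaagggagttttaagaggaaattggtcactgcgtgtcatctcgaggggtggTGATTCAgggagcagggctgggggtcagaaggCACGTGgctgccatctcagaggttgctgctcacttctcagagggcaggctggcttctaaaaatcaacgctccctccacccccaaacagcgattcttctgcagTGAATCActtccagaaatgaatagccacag
LINC00426: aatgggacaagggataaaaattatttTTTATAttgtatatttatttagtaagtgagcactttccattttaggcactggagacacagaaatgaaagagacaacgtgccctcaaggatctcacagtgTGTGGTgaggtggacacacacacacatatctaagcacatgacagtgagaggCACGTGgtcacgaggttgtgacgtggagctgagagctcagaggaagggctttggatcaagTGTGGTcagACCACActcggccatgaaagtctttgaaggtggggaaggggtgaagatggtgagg
The LINC00426 window holds 3 matches to TGTGGT, the core of the RUNX site, 1 to CACGTG, the E-box, and 1 to TATAAA. The median GC content was 58% in the windows of A375-restricted genes and 58.7% in all windows.

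Other lncRNA genes known from melanoma and epithelial cancers or from T cells were described from lists, which were drawn up with earlier results of these data known. Of 30 listed cancer lncRNAs, 24 were autosomal lncRNA genes, of which 21 had more than 3 counts in a line. Of these, 15 were past a log2 ratio of 2 towards A375, beside 35.5% of 7177 lncRNA genes, and 2 towards Jurkat (CASC15 and MIR210HG), beside 11.8%. Some of the 7177 genes have too few counts to pass 2, which lowers these shares. The median log2 ratio of the 21 listed genes was 3.41, and that of all 7177 genes was 1.22. Only MIR100HG was also A375-restricted. SAMMSON, a melanoma lncRNA next to MITF, reached 10 counts in 9 of 33 A375 wells and in no Jurkat well, with 7.69 and 0.725 CPM. PURPL, a p53-regulated lncRNA, reached 10 counts in 13 A375 wells, with 19.8 CPM.

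Of 30 listed T cell lncRNAs, 29 were autosomal lncRNA genes, of which 7 had 3 counts or fewer in both lines. Of the others, 15 were past 2 towards Jurkat, beside 11.8% of lncRNA genes, and none towards A375, beside 35.5% (median log2 ratio of A375 over Jurkat −3.12). LINC00426 was the only one that was Jurkat-restricted. MIR142HG, host of the blood cell miRNA miR-142, was found in 15 of 36 Jurkat wells, with 439 counts and none in A375, and FAM30A in 17, with 31.2 CPM against 0.465 CPM in A375. PRKCQ-AS1 was found in 16 Jurkat and 4 A375 wells. The listed genes thus differed between the lines mostly below the share of wells that the rule asks for.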

How the data were processed

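Single wells of A375 and Jurkat cells were assigned to line and kit by their labels. The authors trimmed the reads, quantified Ensembl v91 transcripts with Kallisto (0.43.1 in the submitters' processing notes) in stranded mode and deposited estimated counts without normalization. TPM values, computed by Kallisto from counts and effective lengths, were deposited too. Counts and TPM were summed to genes by transcript identifier with GENCODE v44 (GRCh38), in which 195850 of 200206 Ensembl transcripts were found. No well was identical to another.

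The members and lists were chosen with earlier results of these data known. CPM was the summed counts of a group scaled to its summed totals. Ratios set sums of 3 counts or fewer to 3. Thresholds of ratios were a log2 of 1 between kits and 2 between lines, for sums of at least 100 counts. For listed genes and shares of all lncRNA genes between lines, more than 3 counts in a line were enough. Genes with few counts could then not pass 2, which lowers those shares. Named genes were the 8 members with the highest summed CPM per line, those past the kit threshold, those next to the limits of the rule, miRNA hosts, listed genes, members with the largest and smallest SD over mean, and members with strongly differing neighbours within 5000 bases. Neighbours farther away, pairs of members, genes with copies and the promoters shown were named after their values were seen.

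Intervals are 95% (Poisson or binomial exact, Wilson for shares of a well). Copies were searched with BLAST 2.17.0. Versions were 3.11.15 for Python, 1.17.1 for scipy, 2.3.3 for pandas, 2.4.6 for numpy and 3.10.9 for matplotlib, and the rule, ratios and thinning were tested on simulated data. Alternatives were other minimums, wells, shares, kits, thinning, TPM, medians, means and totals without the rDNA repeat unit. Leaving out wells with under 50% of counts on protein coding genes, leaving out the well with most counts and the copies, and applying the rule to protein coding genes were chosen after seeing the data.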

Additional observations from a re-analysis of the deposited data

Results flagged for a closer look

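The rule left aside 9 A375 wells with fewer than 200000 counts. In 6 of them the A375-restricted genes held more than the 3 counts taken as the least that the depth can show. The reported values did not use these wells. With kit 634413, replicates 4, 13 and 15 held 12, 100 and 407 counts of these genes. With kit 634444, replicates 1, 11 and 18 held 41, 6 and 6.5 counts. Replicate 4 of kit 634413 and replicates 11 and 18 of kit 634444 were nearly empty, with 1331, 1613 and 2373 counts in all. Their counts of the A375-restricted genes fell on 1, 1 and 3 genes. In replicate 15 of kit 634413, which had 156660 counts in all, 17 of the 63 genes reached 10 counts. Replicate 13 of kit 634413, with 153648 counts in all and 6.90% of them on protein coding genes, reached 10 counts for 3 genes. The 6 Jurkat-restricted genes had 1 count in replicate 13 and none in the other 5 wells.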

How the results depend on the processing

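The number of members depended on the limits of the rule. In place of 63 A375-restricted genes, a minimum of 5 counts gave 102 and one of 20 counts 40, wells of at least 500000 counts gave 117 and all wells 34, and 40% and 75% of the own wells gave 108 and 19. With 0 wells of the other line allowed there were 30, with at most 20% of them 95, with every well thinned to 200000 counts 15, and with kit 634444 alone 103. For the 6 Jurkat-restricted genes, 20 counts gave 2, 40% and 75% of the own wells 13 and 1, 0 wells and at most 20% of the other wells 1 and 10, and kit 634444 alone 11. The rule gave 588 and 195 protein coding genes. The 102 genes at 5 counts held 51 of the 63, the 15 of the thinned wells held 10, the 58 with TPM of at least 10 held 38 and the 59 with kit 634413 alone held 43. Of the 6 Jurkat-restricted genes, 4 were among the 8 at 5 counts, 1 among the 4 of the thinned wells, 2 among the 5 with kit 634413 alone and 4 among the 5 with TPM of at least 10, so similar counts did not mean the same genes. Without the 3 A375 wells of low protein coding share, 84 A375-restricted genes met the rule, all 63 among them, and the same 6 Jurkat-restricted genes.

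The kit counts moved most with medians over wells plus a pseudocount of 1, where 15 A375-restricted genes were higher and 0 lower with kit 634444, and 4 Jurkat-restricted genes were higher. Means of CPM or TPM over wells gave 2 lower A375-restricted genes, and TPM gave 1 higher Jurkat-restricted gene. Of the 7 genes named for a kit difference, LINC00472 (0.996 on the log2 scale without the rDNA repeat unit), ENSG00000251199 (0.89 with mean CPM and 0.86 with TPM), TRHDE-AS1 (−0.93 with medians) and HHIP-AS1 (0.69 with TPM) fell under the threshold in these settings, and none changed direction. Within 10000 bases fewer genes could be compared. There 6 of 8 neighbours of A375-restricted genes were past the ratio in place of 11 of 20. By GENCODE starts, no Jurkat-restricted gene had a neighbour to compare. The cause was not tested for the other changes. Of the other 58 counts and values recomputed, each stayed within 1.5 times the reported one or within the spread over wells.

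No paired analysis was possible because the results come from no test. Each line and kit is 1 sample, and differences between sorts, buffers or pools were not measured. A gene with 10 counts in a well lies near the least that these depths show, and restricted does not mean absent, since the rule let single wells of the other line hold up to 126 counts (ENSG00000273374). Neighbours, lists and positions are descriptions of few genes chosen on these wells.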
